A study of Mus musculus with 26 samples.

Results

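The genes of CTCF and the cohesin machinery were followed through 26 RNA-seq libraries of mouse embryonic stem cells (ESCs) and of the neural progenitor cells (NPCs) made from them. The set held 10 genes, chosen by name: Ctcf, Rad21, Smc1a, Smc3, Stag1, Stag2, Nipbl, Wapl, Pds5a and Pds5b. It is 10 of the 55291 genes counted in both tables of the series. The first table held 8 libraries of the E14 CTCF-AID2 degron line, an E14 ESC line in which both endogenous Ctcf alleles carry an N-terminal mAID-eGFP tag. This line also has OsTIR1(F74G) at 1 Rosa26 allele, an mCherry reporter on both alleles of Hb9, and, at both Tigre alleles, a doxycycline-inducible Flag-Halo-CTCF that is either wild type (WT) or lacks part of zinc finger 1 (ΔZF1). The WT and ΔZF1 lines were 1 clone each. All 8 libraries, the WT controls included, came from cells given 1 µM 5-Ph-IAA, which triggers degradation of the tagged protein, and 1 µg/ml doxycycline for 24 h, with 2 libraries for each rescue and cell type, here called ESC-WT and ESC-ΔZF1 for the stem cells and NPC-WT and NPC-ΔZF1 for the progenitors. The second table held 18 libraries from untreated cells, with 3 libraries for each of the parental E14 WT line, the Podxl pA line and the Grb10 pA line in either cell type. In the pA lines, an eGFP cassette that ends in an SV40 polyadenylation signal follows the first coding exon of both alleles of Podxl or Grb10 and ends the RNA early. NPCs in both tables were cells after 2 days in N2B27 medium on laminin.

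CTCF is a zinc finger protein that binds DNA and stops cohesin as it extrudes chromatin loops. Cohesin is a ring of SMC1A, SMC3 and RAD21, joined by either STAG1 or STAG2. NIPBL loads the ring and drives extrusion, WAPL releases it from DNA, and PDS5A and PDS5B bind it and help WAPL and the acetylation of SMC3. In stem cells and their progeny this machinery shapes contacts between promoters and enhancers.

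The degron acts on protein, so endogenous Ctcf RNA can still be made and counted in the rescue lines, together with the induced rescue RNA. The count of Ctcf in those libraries can therefore hold both RNAs. The 2 sources cannot be told apart, and the level of the endogenous RNA after treatment was not measured. Ctcf lies on the plus strand of mouse chromosome 8 (GRCm38, the sequence of mm10) at 105636568 to 105682922. Its main transcript of 3782 bases in 12 exons has 736 codons, and 1571 of its bases lie outside the coding sequence, which a rescue made of coding sequence does not carry. The following reference sequences show where the tag entered the gene and where the first zinc finger lies. The tag guide site is at chr8:105663771-105663793, plus strand, in codons 3 to 11 in exon 3, and its capitals mark the PAM, the bases beside the guide match that Cas9 needs. The start of the coding sequence is at chr8:105663763-105663822, and its capitals mark the same guide match. The first C2H2 zinc finger is at chr8:105664876-105664938 in exon 4, codons 268 to 288, and its capitals mark the match of a guide used by the study to shorten this finger in the endogenous gene of a separate line, not analysed here.
tag guide site: tgaggcggttgaagccattgTGG
start of the coding sequence: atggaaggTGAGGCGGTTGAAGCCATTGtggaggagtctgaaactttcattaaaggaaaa
first zinc finger: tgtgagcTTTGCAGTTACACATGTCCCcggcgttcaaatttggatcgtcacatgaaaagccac
Reads over the part of the first zinc finger that ΔZF1 lacks could not be separated, because the tables hold 1 count per gene.

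Library totals ranged from 6425179 to 28730435 counts in the rescue table and from 1907505 to 8845087 in the truncation table. All 10 genes passed the filter on low counts in both tables, and the lowest member counts were 742 and 197, both for Stag2. The 6 pluripotency genes summed to between 3640 and 5560 CPM, counts scaled to a total of 1e+06 per library, in ESC libraries and between 349 and 832 in NPC libraries. The 6 neural progenitor genes summed to between 16.4 and 46.4 CPM in ESCs and between 34.5 and 141 in NPCs, so the NPC groups carried low levels of them, lowest in Grb10 pA. Sox1, among these 6, lies on chromosome 8, most of whose genes were lower in Grb10 pA. Hes5 had no counts in ESC-WT, NPC-WT, ESC Podxl pA and NPC Grb10 pA. The 8 extraembryonic endoderm genes, among them Gata6, Sox17 and Lama1, summed to 2230 to 2240 CPM in NPC-ΔZF1 and to 280 to 305 in NPC-WT, with all 8 called up. The 2 NPC-WT libraries differed from each other more than those of any other rescue group. Their difference, replicate 2 minus replicate 1, had quartiles of −0.36 and 0.37 on the log2 scale over all 16641 genes tested, with a median of 0.03. Over the members the median was −0.44, with 9 of 10 lower in replicate 2. In the other 3 rescue groups the member medians lay between −0.03 and 0.

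To ask how abundant the machinery was before any perturbation, CPM was divided by the exon length of each gene. In E14 WT ESCs, Rad21, the ring's kleisin subunit, stood highest at 92.8 ± 1.74 CPM per kilobase (SD, n = 3). Ctcf followed at 47.6 ± 0.466, the releaser Wapl at 46.0 ± 3.21 and the ATPase subunit Smc1a at 43.4 ± 1.80. The Wapl level lay within 1 SD of both of its neighbours in this order. Smc3, the partner of Smc1a, stood at 34.1 ± 2.38. The remaining 5 were lower: Pds5a at 18 ± 0.413, Nipbl at 17.0 ± 2.28, Stag1 at 13.9 ± 0.735, Pds5b at 12 ± 0.583 and Stag2 at 11.1 ± 1.63 CPM per kilobase. Pds5a and Nipbl, and likewise Pds5b and Stag2, differed by less than their spread. The Pds5a level rests on an exon length of 19335 bases and was 39.0 when the longest coding transcript was used instead, while Rad21 stayed first and Stag2 last. In the ESC-WT rescue line Ctcf stood above Rad21, at 117.2 ± 2.19 against 100.3 CPM per kilobase, and it was the highest of the 10 in ESC-ΔZF1 at 174 ± 4.19. In ESC Grb10 pA it ranked 5 of 10, at 30.5 ± 2.58. Levels set side by side between the 2 tables are descriptions, since the tables were made and scaled apart.

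With all libraries in the fit, Ctcf had the largest log2 fold change of the 10 members between the ΔZF1 and WT rescues in both cell types, at 0.57 in ESCs and 0.78 in NPCs. Without NPC-WT replicate 1, the NPC change of Stag2 was larger, at 1.04 against 0.82 for Ctcf. The Ctcf level was 562.1 and 577.2 CPM in the ESC-WT libraries, 860 and 831.2 in ESC-ΔZF1, 474.5 and 448.7 in NPC-WT, and 798.2 and 785.2 in NPC-ΔZF1. Both ΔZF1 libraries were above both WT libraries in each cell type, without overlap. Untreated parental E14 WT cells, in the other table, held 231.6, 228.9 and 233.4 CPM as ESCs and 218.5, 210.6 and 217.1 as NPCs, all below the lowest rescue library. A ratio within each library needs no scaling, so Ctcf was also set against the 3 genes of the cohesin ring. For every 100 reads of Rad21, Smc1a and Smc3 together there were 59.7 and 60.6 Ctcf reads in ESC-WT, 85.2 and 84.3 in ESC-ΔZF1, 55.4 and 59.2 in NPC-WT, and 81.6 and 82.5 in NPC-ΔZF1. The ratio of ΔZF1 to WT was thus 1.41 in ESCs and 1.43 in NPCs, and the E14 WT libraries held 25.1 to 29.2 Ctcf reads on the same scale. The exact permutation test (two-sided) gave p = 0.333 for each ratio, the smallest that 2 against 2 libraries allow, and 0.407 after Benjamini-Hochberg adjustment over 11 comparisons. With Rad21 alone as denominator the ratio of ΔZF1 to WT was 1.47 in ESCs and 1.55 in NPCs. The NPC-WT libraries held 123 and 146 Ctcf reads per 100 reads of Rad21.

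**Figure D1:**
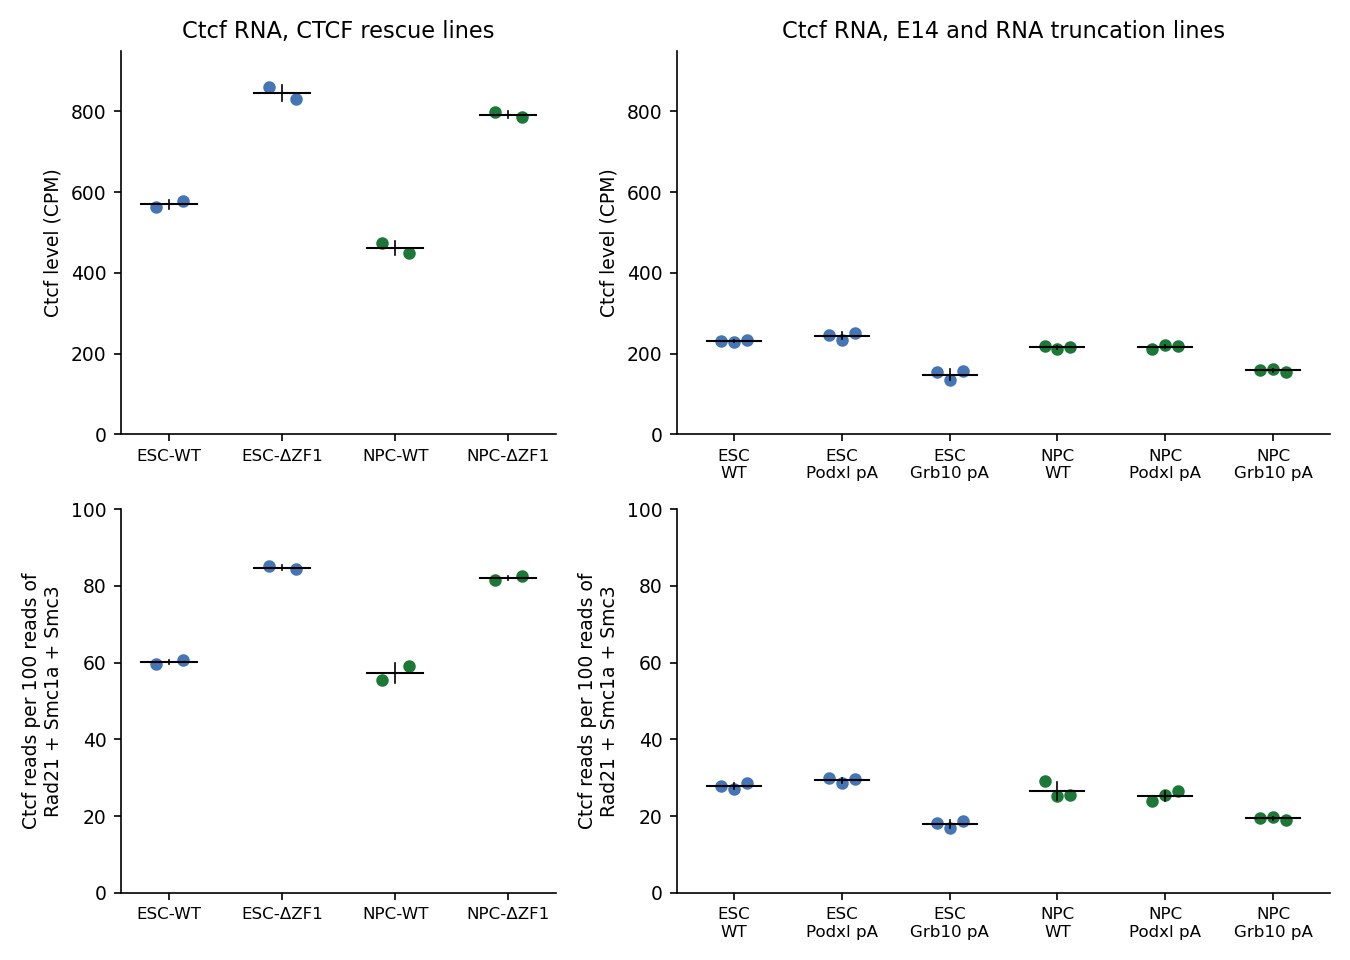
Ctcf in each library of both tables, as CPM (top) and as reads per 100 reads of Rad21, Smc1a and Smc3 (bottom), with the rescue table on the left and the truncation table on the right. Points are libraries, blue for ESCs and green for NPCs, with the group mean as a line and the SD as a bar. The ΔZF1 libraries reach 81.6 to 85.2 on the ratio scale against 55.4 to 60.6 for WT, and the Grb10 pA libraries sit lowest, at 16.8 to 19.8.

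In ESCs, Ctcf was the 1 member of 10 that changed between ESC-ΔZF1 and ESC-WT, where 3.61% of all genes tested did and 1.29% rose. A gene was called changed at an adjusted p of at most 0.05 (edgeR's quasi-likelihood test, Benjamini-Hochberg over all genes tested) together with a shift of 0.5 or more, up or down, on the log2 scale. Ctcf rose 1.48-fold, a log2 fold change of 0.57 ± 0.09 (SE) with a 95% interval of 0.36 to 0.78 (edgeR, adjusted p = 0.0161). When any 1 of the 4 libraries was left out, the Ctcf change stayed between 0.55 and 0.63 but was no longer called. Such a fit leaves 1 library in a group, so its p-value is not given. The test takes its spread from all 8 rescue libraries, the NPC-WT pair included. Under 7 other choices of processing with all 4 libraries, the change lay between 0.57 and 0.59 and was called in each. The WT and ΔZF1 rescues were each 1 clone, so clone and construct cannot be told apart in this comparison.

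The other 9 members had log2 fold changes between −0.07 for Wapl and 0.33 for Stag1 in ESC-ΔZF1 against ESC-WT, and none passed the adjusted p. Of the 10, 9 lay above 0 and the median was 0.18, against −0.01 over all genes tested. In 8 members both ΔZF1 libraries were above both WT libraries, a pattern that 27.5% of all genes had. Stag1, one of the 2 alternative cohesin subunits, was at 223.1 and 214.1 CPM in ESC-WT and at 271 and 279.5 in ESC-ΔZF1. Pds5b was at 160 and 159.4 against 195.4 and 202.9 CPM, and its partner Pds5a at 323.9 and 320.6 against 325.6 and 341.7. Pds5b therefore made up 33.1 and 33.2% of the reads of the Pds5 pair in ESC-WT and 37.5 and 37.3% in ESC-ΔZF1, and the share was higher in NPC-ΔZF1 as well, at 37.5 and 37.3% against 33.4 and 34.9% in NPC-WT. The exact permutation test gave p = 0.333 for both, again the smallest possible, and 0.564 after adjustment over the 22 comparisons of paralog shares.

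In NPCs, 2 of the 10 members rose in NPC-ΔZF1 against NPC-WT, Ctcf and Stag2, where 17.6% of all genes tested were called and 7.19% rose. Ctcf rose 1.72-fold, a log2 fold change of 0.78 ± 0.09 (SE; 0.57 to 0.99; edgeR, adjusted p = 0.000666). Stag2, the alternative subunit to Stag1, was at 172.7 and 108.8 CPM in NPC-WT and at 224.7 and 223.1 in NPC-ΔZF1. The 2 NPC-WT libraries were thus farther apart from each other than replicate 1 was from either NPC-ΔZF1 library. Stag2 rose by 0.67 ± 0.17 on the log2 scale (SE; 0.28 to 1.05; edgeR, adjusted p = 0.0243). Smc1a at 0.36 and Pds5b at 0.43 passed the adjusted p but not the fold cutoff (edgeR, adjusted p = 0.0288 and 0.0454). All 10 members lay above 0 with a median of 0.34, against 0 over all genes tested. In 6 of them both NPC-ΔZF1 libraries were above both NPC-WT libraries, a pattern of 30.1% of all genes.

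The member changes in NPC-ΔZF1 turned on which NPC-WT library was kept. A fit without 1 of them leaves 1 library in that group, which then adds no spread of its own, so sizes alone are given. Without replicate 1, all 10 members lay above 0, from 0.29 to 1.04, with a median of 0.54. Without replicate 2, Ctcf stood at 0.72 and Stag2 at 0.36. In that fit 6 members lay above 0 and 4 below, with a median of 0.19. Leaving out either NPC-ΔZF1 library ended the call of Stag2, in fits that leave 1 library in that group. The drop from replicate 1 to replicate 2 within NPC-WT was 0.67 for Stag2, 0.63 for Wapl, 0.54 for Nipbl, 0.53 for Pds5a, 0.45 for Stag1 and 0.43 for Pds5b on the log2 scale, but 0.08 for Ctcf. Most of these are long genes: when the genes tested were split by exon length into 3 classes of like size, 8 of the 10 members were in the longest class and Ctcf and Rad21 in the middle one. The same difference had a median of 0.09 in the shortest class, 0.07 in the middle class and −0.05 in the longest. The part of gene length in the difference was not tested. The part of the higher extraembryonic endoderm markers of NPC-ΔZF1 in the Stag2 and Ctcf values was not tested either, and in bulk samples fewer cells of a type and less RNA per cell cannot be told apart.

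Whether the ΔZF1 effect differed between the cell types was tested as an interaction in the same fit. None of the 10 members was called, where 2.7% of all genes were, and 0 reached an unadjusted p under 0.05. The differences, NPC effect minus ESC effect, ran from −0.08 to 0.46, and their 95% intervals reached from −0.57 to 1.02, so differences above the fold cutoff were not excluded at this replication. Without NPC-WT replicate 1, which leaves 1 library in that group, the differences were 0.83 for Stag2 and 0.63 for Wapl.

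**Figure D2:**
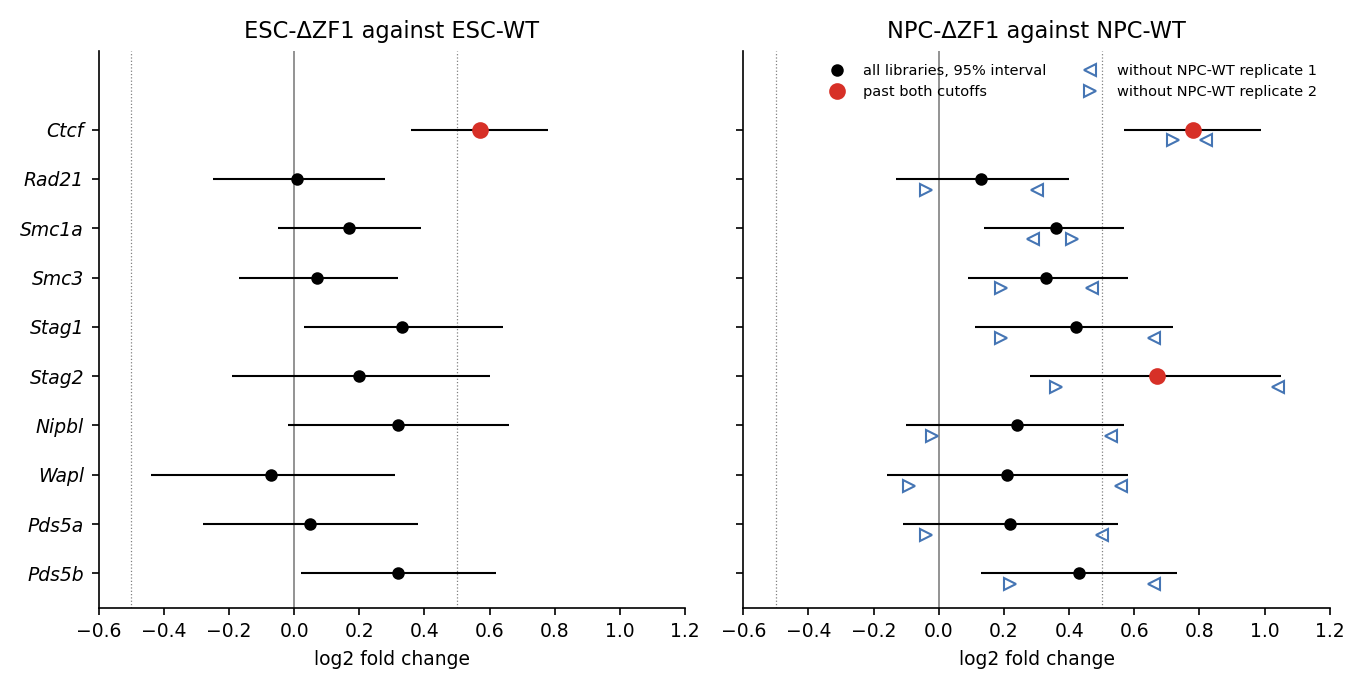
Log2 fold change of each member in ESC-ΔZF1 against ESC-WT and in NPC-ΔZF1 against NPC-WT, with 95% intervals. Red marks genes past both cutoffs, dotted lines mark 0.5 above and below 0, and triangles give the NPC values with 1 NPC-WT library left out. Ctcf stands to the right in both, and the triangles of Stag2 spread from 0.36 to 1.04.

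Between ESCs and NPCs, Stag2 was the member that changed in each parental or truncation line. In E14 WT it was at 79.15, 90.24 and 106 CPM in ESCs and at 175.1, 175.6 and 183.7 in NPCs. In Podxl pA the ESC libraries held 91.38, 100.6 and 101.5 CPM and the NPC libraries 180.6, 176.5 and 179.1, and in Grb10 pA 101.5, 69.04 and 87.42 against 166.9, 150.5 and 156.5. All 9 NPC libraries were above all 9 ESC libraries. Stag2 was the 1 member of 10 called in each line, where 32.8% of all genes were called in E14 WT, 31.8% in Podxl pA and 34.6% in Grb10 pA, and 16.5%, 17.1% and 17.2% rose. It rose 1.96-fold in E14 WT, a log2 fold change of 0.97 ± 0.10 (SE; 0.76 to 1.18; edgeR, adjusted p = 1.32e-08). The rise was 0.87 ± 0.10 in Podxl pA (edgeR, adjusted p = 7.20e-08) and 0.87 ± 0.10 in Grb10 pA (edgeR, adjusted p = 7.51e-08). Stag2 lies on chromosome X, whose genes had upper quartiles of 0.70 in E14 WT, 0.79 in Podxl pA and 0.74 in Grb10 pA. Over all genes tested the upper quartile was 0.36 in each line. The chromosome X medians were 0.07, 0.15 and 0.21. Smc1a, also on chromosome X, changed by 0.01, −0.01 and −0.28. The part of the chromosome in the Stag2 rise was not tested. The 8 extraembryonic endoderm genes also rose from ESCs to NPCs, 8 of 8 in each of these lines. They summed to 82.9 to 102 CPM in ESCs and 456 to 588 in NPCs of E14 WT, to 99.2 to 121 and 857 to 923 in Podxl pA, and to 145 to 156 and 396 to 510 in Grb10 pA. Across differentiation of the rescues 6 of 8 rose in WT and 8 of 8 in ΔZF1, and their part in the member changes between ESCs and NPCs was not tested.

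Stag1 was at 171.2, 165.6 and 154.2 CPM in E14 WT ESCs and at 137.6, 149.3 and 144.3 in NPCs, with every NPC library below every ESC library, as for 27.9% of all genes. The log2 fold change there was −0.19 and did not pass (edgeR, adjusted p = 0.0869). It was −0.25 in Podxl pA and −0.27 in Grb10 pA, past the adjusted p but not the fold cutoff (edgeR, adjusted p = 0.0248 and 0.0141). Between the rescues Stag1 lay above 0, at 0.06 in WT and 0.15 in ΔZF1 (edgeR, adjusted p = 0.720 and 0.409). Stag2 took 31.6, 35.3 and 40.7% of the reads of the Stag1 and Stag2 pair in E14 WT ESCs and 56, 54 and 56% in the NPCs. The mean shares differed by 19.5 percentage points in E14 WT, 19.1 in Podxl pA and 19.5 in Grb10 pA. Each exact permutation test gave p = 0.1, the smallest that 3 against 3 allow, and 0.55 after adjustment over the 22 comparisons. These shares are of reads, not per length: the exons of Stag1 cover 11781 bases and those of Stag2 8273.

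In the rescue lines, Stag2 rose between ESC-ΔZF1 and NPC-ΔZF1, from 130.1 and 128.4 to 224.7 and 223.1 CPM. It was the 1 member called there, by 0.79 ± 0.18 on the log2 scale (SE; 0.40 to 1.18; edgeR, adjusted p = 0.00454), where 37.3% of all genes were called and 20.4% rose. The upper quartile of the same change was 0.98 over chromosome X and 0.55 over all genes tested. Without ESC-ΔZF1 replicate 2 the change was 0.74 and no longer called, in a fit that leaves 1 ESC-ΔZF1 library. Between ESC-WT at 113.4 and 111.1 CPM and the NPC-WT libraries at 172.7 and 108.8, the Stag2 change was 0.33 (edgeR, adjusted p = 0.149). It was 0.63 without NPC-WT replicate 2 but −0.03 without replicate 1. The Stag2 share of the pair was 33.7 and 34.2% in ESC-WT, 39.6 and 36.1% in NPC-WT, 32.4 and 31.5% in ESC-ΔZF1, and 42.1 and 42.5% in NPC-ΔZF1. Each rescue NPC library thus stayed below the 53.8 to 57.9% of the NPC libraries of the other table. The 2 rescue comparisons against WT in NPCs and across differentiation share the NPC-WT libraries.

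**Figure D3:**
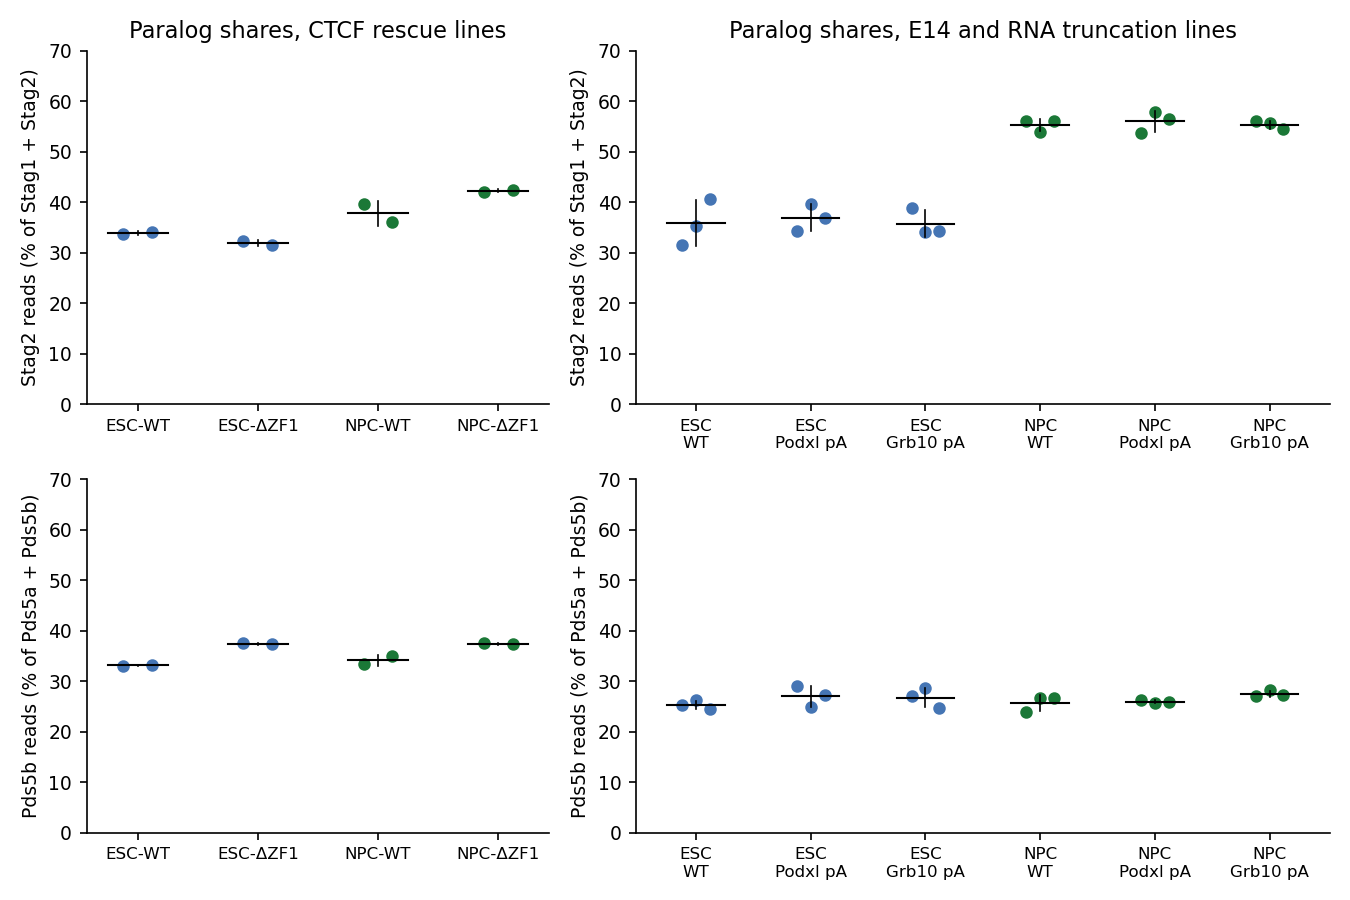
Share of Stag2 in the reads of Stag1 and Stag2, and share of Pds5b in those of Pds5a and Pds5b, in percent, by library, with ESCs in blue and NPCs in green. The Stag2 share lies between 31.6 and 40.7% in the ESC libraries of the truncation table and between 53.8 and 57.9% in its NPC libraries, while the Pds5b share of that table stays between 23.9 and 29% in both.

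Wapl, which releases cohesin from DNA, had a lower mean in NPCs than in ESCs in each line. In ESC-WT it was at 387.1 and 385.9 CPM and in NPC-WT at 318.1 and 205.4, and it was the 1 member called in that comparison, where 41.9% of all genes were and 19.9% fell. It fell by 0.56 ± 0.17 on the log2 scale (SE; −0.94 to −0.18; edgeR, adjusted p = 0.0197). The fall rested on NPC-WT replicate 2: without it the change was −0.27, under the fold cutoff, and without replicate 1 it was −0.90. Leaving out either ESC-WT library also ended the call, in fits that leave 1 library in that group. Between the ΔZF1 rescues the change was −0.28 and did not pass (edgeR, adjusted p = 0.201). In E14 WT the Wapl libraries held 280.6, 314.7 and 319.6 CPM as ESCs and 254.1, 267.2 and 254.5 as NPCs, without overlap, as for 27.9% of all genes. The Podxl pA libraries did not overlap either, while those of Grb10 pA did. The changes of −0.24 in E14 WT, −0.24 in Podxl pA and −0.27 in Grb10 pA passed the adjusted p but not the fold cutoff (edgeR, adjusted p = 0.0352, 0.0310 and 0.0142).

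Smc3 was close to the fold cutoff in 1 line. In Podxl pA it was at 189.9, 190.8 and 171 CPM in ESCs and at 256.7, 259.5 and 260.8 in NPCs, a log2 fold change of 0.49 ± 0.08 (SE; 0.32 to 0.65; edgeR, adjusted p = 1.25e-05). With DESeq2, with another normalization, with either other filter on low counts or with only the 2 groups compared, it lay between 0.50 and 0.53 and was called. In Grb10 pA it was at 214.6, 201.6 and 214.4 CPM in ESCs and at 268.4, 245 and 251.9 in NPCs, a change of 0.28 (edgeR, adjusted p = 0.00424). In E14 WT the ESC libraries at 186.2, 203.4 and 177.5 CPM and the NPC libraries at 194.8, 228.6 and 219.4 overlapped.

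For its partner Smc1a, the change in Grb10 pA was −0.28 (edgeR, adjusted p = 0.00763), from 234.8, 278.6 and 248.5 CPM in ESCs to 205.2, 211.1 and 208.1 in NPCs. Pds5a had 0.22 in Podxl pA (edgeR, adjusted p = 0.0341) and Pds5b 0.25 in Grb10 pA (edgeR, adjusted p = 0.0355), both under the fold cutoff. Ctcf fell short of it too, at −0.30 in NPC-WT against ESC-WT (edgeR, adjusted p = 0.0213). Over the 10 members the median NPC against ESC change was −0.05 in E14 WT, 0.07 in Podxl pA, 0.03 in Grb10 pA, −0.15 between the WT rescues and 0 between the ΔZF1 rescues, against −0.02 to 0.02 over all genes tested. The WT rescue median was −0.34, with all 10 members below 0, without NPC-WT replicate 1 and −0.02, with 5 below 0, without replicate 2. Rad21 and the loader Nipbl were called in none of the 5 comparisons.

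**Figure D4:**
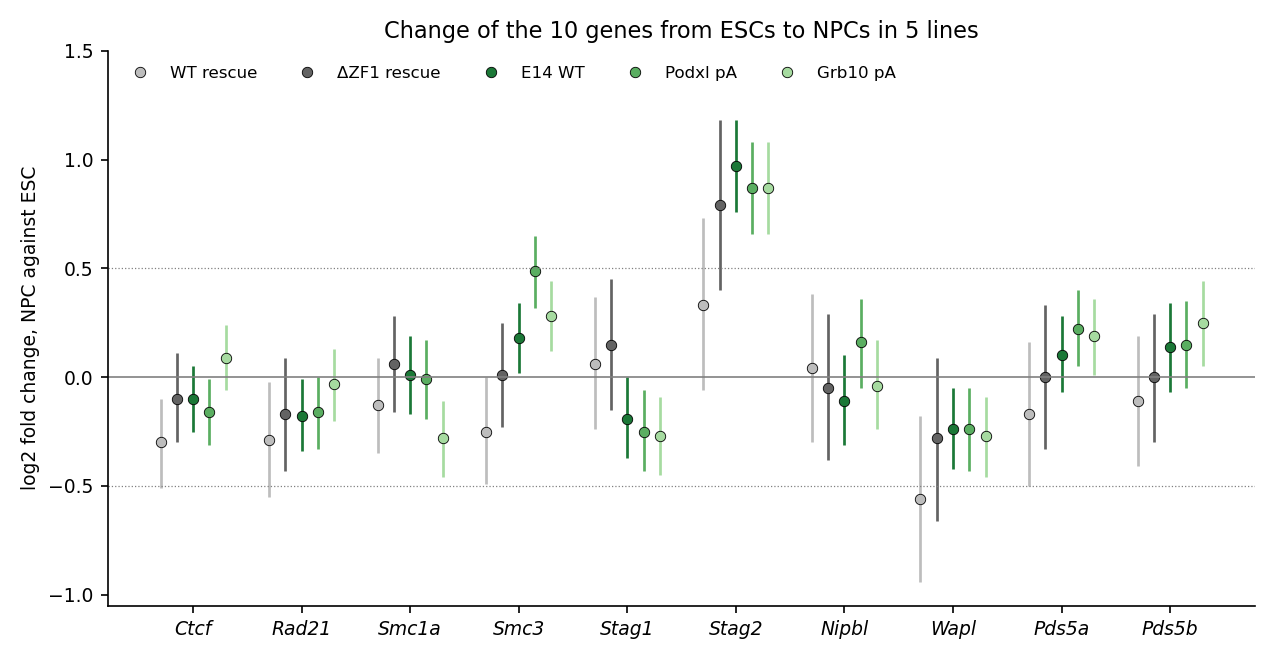
Log2 fold change of the 10 members in NPCs against ESCs in each of the 5 lines, with 95% intervals. Stag2 stands apart from the rest in the 3 lines of the truncation table, at 0.87 to 0.97, while Wapl lies below 0 in all 5.

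The Grb10 pA line held less Ctcf RNA than its parent. The study grew its edited lines from single cells, and no label names the clone of a pA library. Clone and truncation therefore cannot be told apart in the comparisons of either pA line with E14 WT. In ESCs the Grb10 pA libraries held 153.8, 133.9 and 157.1 CPM of Ctcf and the E14 WT libraries 231.6, 228.9 and 233.4, and in NPCs 158.8, 161 and 154.9 against 218.5, 210.6 and 217.1. Every Grb10 pA library was below every E14 WT library in both cell types. In ESCs Ctcf was the 1 member called, where 9.09% of all genes were and 4.58% fell. It fell by 0.64 ± 0.07 on the log2 scale, a ratio of 0.643 (SE; −0.79 to −0.48; edgeR, adjusted p = 1.03e-06). In NPCs, where 16.5% of all genes were called, no member was, and Ctcf stood at −0.44 ± 0.07 (SE; −0.59 to −0.29; edgeR, adjusted p = 5.01e-05), under the fold cutoff. The difference between the 2 effects was 0.19 and did not pass (edgeR, adjusted p = 0.284).

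Most genes of chromosome 8, where Ctcf lies, were lower in Grb10 pA too. Genes on chromosome 8 took 4.42 to 4.94% of autosomal counts in the Grb10 pA libraries and 6.59 to 6.90% in the E14 WT and Podxl pA libraries. In ESCs 661 of the 730 chromosome 8 genes tested lay below 0 in Grb10 pA against E14 WT, with a median of −0.49, and 288 of them (39.5%) were called down, against 2.55% of genes on other chromosomes. Of these genes 228 (31.2%) had a lower log2 fold change than Ctcf in ESCs, and 396 (54.2%) in NPCs, where the median was −0.48. Of the 20 tested genes nearest to Ctcf, 19 lay below 0 in ESCs and 16 in NPCs, with a median of −0.49 in both. When the median of chromosome 8 was subtracted, Ctcf stood at −0.15 in ESCs and at 0.04 in NPCs, and it was called in neither. That median came from the same comparison, so the subtraction only places Ctcf among the genes of its chromosome. The part of the chromosome in the lower Ctcf values was not tested.

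Mau2, the obligate partner of NIPBL in the cohesin loader, also lies on chromosome 8, at 70016123 to 70042734, and had values like those of Ctcf. It was at 83.95, 92.51 and 80.31 CPM in ESC Grb10 pA and at 133.9, 143.5 and 137.1 in ESC E14 WT. It fell by 0.70 ± 0.08 on the log2 scale in ESCs (edgeR, adjusted p = 1.18e-06) and by 0.60 ± 0.08 in NPCs (edgeR, adjusted p = 2.45e-06). Nipbl itself, on chromosome 15, was at 167.3, 129.1 and 155.9 CPM in ESC Grb10 pA and overlapped the E14 WT libraries at 162.9, 179.8 and 137.1.

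**Figure D5:**
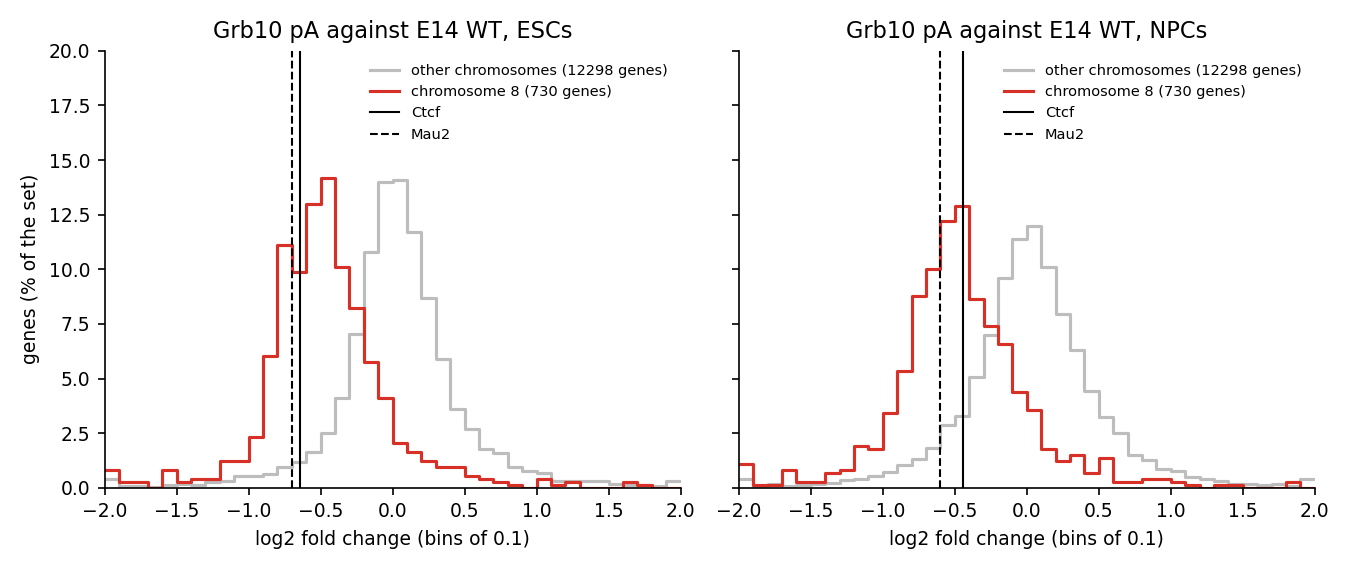
Distribution of log2 fold changes in Grb10 pA against E14 WT for the 730 tested genes of chromosome 8 and the 12298 of other chromosomes, in ESCs and NPCs, as the percent of genes per bin of 0.1 with values beyond 2 in either direction in the end bins. The solid line marks Ctcf and the dashed line Mau2, and both lie within the shifted distribution of chromosome 8, whose median is −0.49 in ESCs and −0.48 in NPCs.

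The other 9 members had log2 fold changes between −0.18 and 0.15 in ESC Grb10 pA, and none of them passed the adjusted p. In NPC Grb10 pA, Smc1a at −0.28 and Smc3 at 0.25 passed it without reaching the fold cutoff (edgeR, adjusted p = 0.0167 and 0.0178). Smc1a held 205.2, 211.1 and 208.1 CPM there against 216.5, 270.6 and 268.3 in NPC E14 WT, and Smc3 268.4, 245 and 251.9 against 194.8, 228.6 and 219.4. Neither gene overlapped between the groups there, and 6 of the 10 members did not. Over all genes, 21.8% had every Grb10 pA library above every E14 WT library and 21.7% had every one below. None of the 10 interactions was called, where 5.9% of all genes were, and the lowest was −0.29 for Smc1a (edgeR, adjusted p = 0.151).

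No member was called in Podxl pA against E14 WT in either cell type. The share of all genes called was 0.339% in ESCs and 0.55% in NPCs. The ESC changes ran from −0.13 to 0.11, 0 of 10 reached an unadjusted p under 0.05, and the 95% intervals of all 10 lay within −0.34 and 0.32. In NPCs the changes ran from −0.04 to 0.27 with intervals within −0.22 and 0.43, and 1 of 10, Smc3, had an unadjusted p under 0.05 (edgeR, adjusted p = 0.144). All intervals thus stayed inside the fold cutoff of 0.5. The Podxl pA and Grb10 pA comparisons share the E14 WT libraries. No interaction was called either, where 0.098% of all genes were.

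Other genes of the pathway were counted in lists of cohesin regulators (12 genes), germline cohesin subunits (4), condensin (8) and the SMC5/6 complex with Smchd1 (7). In ESC-ΔZF1 against ESC-WT, where 2.33% of all genes fell and 1.29% rose, 2 regulators fell. They were Pttg1 (securin, the inhibitor of separase) by 0.89 and Haspin (a histone H3 kinase) by 0.53. Rec8, a meiotic kleisin, fell by 0.84 while Nsmce3 of SMC5/6 rose by 0.56. In NPC-ΔZF1 against NPC-WT, where 10.5% of all genes fell and 7.19% rose, Pttg1 fell by 1.16, Espl1 (separase) by 0.58 and Rec8 by 1.28. Smc2 of condensin rose there by 0.50. The adjusted p-values of these 8 changes lay between 0.000178 and 0.0487 (edgeR). Pttg1 and Haspin are on chromosome 11, whose median was −0.46 in the ESC and −0.57 in the NPC comparison. No member lies on that chromosome. None of the other regulators, Mau2 included, was called in either comparison, and Mau2 was at 86.66 and 92.81 CPM in ESC-WT and at 90.55 and 95.64 in ESC-ΔZF1.

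Of the germline subunits, which replace the somatic ones in meiosis, at least 1 was called between ESCs and NPCs in each line, where 31.8% to 41.9% of all genes were. Stag3 was at 85.26, 75.68 and 63.68 CPM in E14 WT ESCs and at 31.72, 24.6 and 30.33 in NPCs, a fall of 1.42 ± 0.12 on the log2 scale (edgeR, adjusted p = 2.39e-10). It also fell by 0.95 in Podxl pA and by 1.28 and 1.40 in the WT and ΔZF1 rescues, but in Grb10 pA the NPC libraries held 79.89, 82.75 and 66.01 CPM and Stag3 was not called. Rec8 rose by 0.85 in E14 WT, 0.64 in Podxl pA, 1.21 in Grb10 pA and 0.88 between the WT rescues. Smc1b, the meiotic counterpart of Smc1a, rose in the 3 lines of the truncation table, by 0.83, 1.78 and 1.38, and fell by 0.86 between the WT rescues, where its libraries held 6.114 and 7.501 CPM as ESCs and 4.788 and 2.492 as NPCs. Rad21l was not tested in either table.

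Smc1b was also higher in Grb10 pA than in E14 WT. It was at 13.42, 11.74 and 9.477 CPM against 5.669, 4.452 and 4.271 in ESCs and at 30.61, 27.92 and 31.29 against 10.36, 7.334 and 9.1 in NPCs. The rise was 1.25 ± 0.24 in ESCs (edgeR, adjusted p = 0.000576) and 1.80 ± 0.19 in NPCs (edgeR, adjusted p = 6.27e-08). In NPC Grb10 pA all 3 tested germline subunits rose, with Stag3 at 1.43 and Rec8 at 0.61, where 7.9% of all genes rose. Hdac8, the deacetylase of SMC3, rose by 0.89 in ESC Grb10 pA (edgeR, adjusted p = 0.00255), and Pttg1 by 0.97 in NPC Grb10 pA (edgeR, adjusted p = 2.04e-06). In Podxl pA against E14 WT no gene of these lists was called in either cell type, where 0.339% of all genes were in ESCs and 0.55% in NPCs.

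Ctcfl, the germline paralog of Ctcf, was low everywhere. It was at 7.489 and 6.196 CPM in ESC-WT, 2.791 and 3.512 in ESC-ΔZF1, 0.5509 and 1.203 in NPC-WT, and 0.8811 and 1.103 in NPC-ΔZF1. It fell with differentiation by 3.07 ± 0.36 between the WT rescues (edgeR, adjusted p = 9.02e-05) and by 1.67 ± 0.34 between the ΔZF1 rescues (edgeR, adjusted p = 0.00270). In the truncation table no library exceeded 2.813 CPM and the gene did not pass the filter.

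Of all genes tested, 41.9% were called between ESCs and NPCs of the WT rescue and 37.3% of the ΔZF1 rescue. The same share was 32.8% in E14 WT, 31.8% in Podxl pA and 34.6% in Grb10 pA. Among regulators, Esco2, an acetyltransferase of SMC3, fell between ESCs and NPCs of the WT and ΔZF1 rescues by 1.16 and 0.84, and Haspin by 0.80 and 0.73. Phf6 fell by 0.90 between the WT rescues and Pttg1 by 0.68 between the ΔZF1 rescues. Mau2 rose by 0.60 between the WT rescues (edgeR, adjusted p = 0.00182). In E14 WT, Hdac8 rose by 0.89 and 2 regulators fell, Pttg1 among them by 0.71, and in Podxl pA Hdac8 rose by 0.61. No regulator was called between ESCs and NPCs of Grb10 pA. In the SMC5/6 list, Nsmce3 fell by 0.59 between the WT rescues, Nsmce3 by 1.05 and Nsmce1 by 0.54 between the ΔZF1 rescues, where Smchd1 rose by 0.61, Nsmce2 fell by 0.57 in E14 WT and by 0.54 in Grb10 pA, Nsmce1 fell by 0.59 in Podxl pA, and Smchd1 rose by 0.59 in Grb10 pA. Within condensin, 1 gene was called in each rescue line across differentiation, Smc2 falling by 0.72 in WT and Ncapd3 by 0.54 in ΔZF1, and 0 of 8 in each line of the truncation table. Of 8 proliferation genes, which follow cycling cells, 0 were called in any comparison of ΔZF1 with WT. Those comparisons called 3.61% of all genes in ESCs and 17.6% in NPCs. Between the WT rescues 7 of the 8 lay below 0 across differentiation with a median of −0.21, and Pcna fell by 0.65 and Cdk1 by 0.53 while Mki67 rose by 0.87. All WT rescue changes of listed genes rest on the 2 NPC-WT libraries, which differed from each other. Their dependence on either library was not examined. Between the ΔZF1 rescues Mki67 rose by 0.76, and in Grb10 pA Mki67 rose by 0.53 and Ccnb1 by 0.56.

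The genes whose levels followed Ctcf most closely differed between the tables. Over the 18 truncation libraries and 7270 genes averaging 100 or more normalized counts, the highest Pearson correlations of log2 CPM with Ctcf were those of Nup93 at 0.965, Ash2l, Ap1g1 and Dnajb1 at 0.954 each, and Rfwd3 at 0.952. All 5 are on chromosome 8. Over the 8 rescue libraries and 10251 genes they were those of Hexa at 0.987, Tsr2 at 0.986, Plagl1 at 0.985, Vldlr at 0.982 and Patl1 at 0.974, none of them on chromosome 8. Among the members the highest in the rescue table were Smc1a at 0.919 and Pds5b at 0.893, and in the truncation table Pds5a at 0.553, with Smc3 lowest at −0.417. The libraries share groups and depth, so these values are descriptions, and with Spearman correlations 0 of the 5 genes remained among the highest 5 in either table.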

How the data were processed

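Total RNA was depleted of rRNA, primed with random hexamers and sequenced as 2 × 50-base pairs. Per the study's methods, the authors aligned reads to mm10 with STAR and deposited raw counts per gene from featureCounts, with no normalization. Versions and the annotation used for counting are not given in the sources used here, nor is the handling of reads shared with near-identical copies. Counting did not use strand. Ctcf shares 370 exon bases (7.61%) with Agrp and Gm5914 on the other strand. Of the columns in the tables, 3 matched no sample and were not used.

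Each table was fitted on its own with 1 mean per group and no covariate (edgeR 4.0.16 in R 4.3.3, TMM, filterByExpr, quasi-likelihood test, Benjamini-Hochberg over 16641 and 13268 genes). Cutoffs followed the study. CPM used TMM library sizes. Replicates are called biological by the study, but no label ties them to separate cultures, so p-values measure the spread between these libraries. In a rescue fit with 1 library left out, the group it came from holds 1 library and adds no spread. Gene positions came from a GRCm38 annotation. Checks on simulated data with 200 changed genes found 67% of them in the NPC-ΔZF1 against NPC-WT design (16006 genes, 8.22% of calls false) and 91% in the ESC Grb10 pA against E14 WT design (12865 genes, 2.15% false). The changed genes were well counted, their shifts were set above the fold cutoff, and each gene was drawn independently. Shifts shared by many genes, as between the NPC-WT libraries or over a chromosome, were not simulated, so these rates do not cover them. Alternatives were RLE normalization, other count filters, DESeq2 1.42.0, only the compared groups, a replicate block, chromosome medians as offsets and leaving out each library. All members were named, and listed pathway genes were named where called, at least the 4 largest over all lists in each direction and comparison, or as partner or paralog of a member, except 1 listed gene that is not reported here. Members, lists and tests were chosen with earlier results of these data known.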

Additional observations from a re-analysis of the deposited data

Results flagged for a closer look

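For 4 listed genes the Grb10 pA effect differed between NPCs and ESCs by the interaction test in the edgeR fit, which called 5.9% of all genes. Hdac8 differed by −1.26 (NPC effect minus ESC effect, log2 scale; edgeR, adjusted p = 0.00463), with a rise of 0.89 in ESCs. Pttg1 differed by 0.85 (edgeR, adjusted p = 0.00372), with a rise of 0.97 in NPCs. Stag3 differed by 1.06 (edgeR, adjusted p = 0.000166), with a rise of 1.43 in NPCs. Mki67 differed by 0.65 (edgeR, adjusted p = 0.00926). No member of the CTCF and cohesin set differed in this way.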

How the results depend on the processing

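The call of Ctcf in NPC-ΔZF1 and of Stag2 across differentiation in E14 WT, Podxl pA and Grb10 pA held under each alternative run. Counts of members called changed as follows. For NPC-WT against ESC-WT the count was 0 with no filter on low counts (Wapl −0.50, 22% of all genes called) and 0 with only the compared groups (37%). For NPC-ΔZF1 against NPC-WT it was 1 with only the compared groups (7.11% of all genes, with Stag2 at 0.66, edgeR, adjusted p = 0.127). For Podxl pA NPCs against ESCs it was 2 (Smc3 and Stag2) under RLE, no filter, at least 10 counts in every library, DESeq2 and only the compared groups (31.8%, 12.9%, 25.5%, 23.4% and 32.2% of all genes). For Grb10 pA against E14 WT in ESCs it was 0 with the chromosome 8 median subtracted (6.9%), which also turned Ctcf in NPCs to 0.04. Leaving out 1 library at a time gave 1 to 2 members for Podxl pA across differentiation (28.6% to 31.4% of all genes called). In the rescue comparisons it leaves 1 library in a group, which then adds no spread of its own. For those comparisons the sizes of change are given instead of counts. Values that crossed 0 when a NPC-WT library was left out were, for NPC-ΔZF1 against NPC-WT, Rad21 (−0.04 to 0.30), Nipbl (−0.02 to 0.53), Wapl (−0.09 to 0.56) and Pds5a (−0.04 to 0.50). For NPC-WT against ESC-WT they were Stag2 (−0.03 to 0.63), Pds5a (−0.45 to 0.08), Stag1 (−0.17 to 0.28), Nipbl (−0.25 to 0.29) and Pds5b (−0.34 to 0.09). For the interaction, Wapl (−0.03 to 0.63) was the 1 member beyond 1 SE of 0 that crossed. Interactions that lay within 1 SE of 0 with all libraries are not named here, whether they crossed 0 or not. These are sizes of change only, since NPC-WT then holds 1 library. With Rad21 alone as denominator the Ctcf ratio was 1.05 for NPC-ΔZF1 against ESC-ΔZF1 (0.968 with all 3 ring genes) and 1 for Podxl pA NPCs against ESCs (0.862). Of all 970 member values under other settings, 12 changed sign where the value with all libraries lay within 1 SE of 0, and 1 where it lay beyond. Of all 900 member values with a library left out, 63 and 7 did. The cause of these changes was not tested.

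Replicate numbers are shared across groups in the labels, but same-numbered libraries deviated together only weakly (correlations of −0.09 to 0.13 across genes), 6 of 8 rescue and 7 of 18 truncation libraries were closest to their own number, and nothing in the labels ties a number to a day or batch. With a replicate block, the number of members called was 1 for ESC-ΔZF1, 2 for NPC-ΔZF1 and the same as without the block in all 14 comparisons, with 2.46% and 16.5% of all genes called in those first 2.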
